A study of Mus musculus with 6 samples.

Results

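The enzymes of serine synthesis and of folate-bound one-carbon metabolism were followed by their RNA in mouse splenic B cells with and without the splicing factor hnRNPL. The genes were taken by symbol: Phgdh, Psat1, Psph, Shmt1, Shmt2, Mthfd1, Mthfd2, Mthfd1l, Mthfd2l and Aldh1l2. All 10 were found among the 55421 genes of the table, and all 10 were among the 17640 genes abundant enough to test, those averaging 10 normalized counts or more. Both groups carried the Rosa mT/mG reporter and the CD21-cre transgene. The WT group (n = 3 libraries) had intact Hnrnpl, and in the hnRNPL-deficient group (n = 3) both alleles of Hnrnpl were floxed (Hnrnpl F/F). Splenic B cells of both groups were cultured for 24 h with LPS at 5 µg/ml and IL-4 at 5 ng/ml, stimuli that drive resting B cells into growth and division. Cells carrying GFP were then sorted, GFP being the sign in the mT/mG reporter that Cre had acted, and poly(A)-selected RNA of these cells was sequenced. The mice were male and female, older than 6 weeks and on the C57BL6/J background. The Cre driver is active chiefly in mature B cells of the periphery, and since some recombination also takes place elsewhere in the developing mouse, Hnrnpl was not lost from B cells alone.

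Serine can be taken up or made from a glycolytic intermediate. PHGDH oxidises 3-phosphoglycerate, PSAT1 adds an amino group taken from glutamate, and PSPH removes the phosphate to give serine. SHMT1 in the cytosol and SHMT2 in mitochondria then split serine into glycine and a carbon unit that is handed to tetrahydrofolate. In mitochondria MTHFD2 or MTHFD2L oxidises that unit and MTHFD1L releases it as formate. Cytosolic MTHFD1 puts formate back on folate, from which purines and thymidylate are built, while ALDH1L2 burns the mitochondrial formyl unit to CO2. Lymphocytes switch this pathway on when they enter the cell cycle.

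The sequences just upstream of these genes were examined because most of the genes moved together. RefSeq promoter windows on GRCm38.p6, 250 bases before to 50 bases after an annotated start, were at hand for 9 of the 10 enzymes, all but Aldh1l2. The motif CCAAT, searched on both strands, lay in the windows of 6 of the 9 (Phgdh, Psat1, Psph, Shmt1, Mthfd1 and Mthfd2) and in those of 41.1% of the 27025 genes with a window. The E-box CACGTG, bound by MYC and related factors, was found in 0 of the 9, against 8.09% of all genes, and the ATF4-type motif TGATGNAA in 0 of the 9, against 4.51%. All 3 motifs were searched on both strands of the same windows, and a match describes the letters only. Of the 6 genes with CCAAT, Phgdh, Psat1, Shmt1 and Mthfd2 fell at a limma adjusted p under 0.1, and Psph and Mthfd1 did not. Of those without it, Shmt2 and Mthfd1l fell at that threshold and Mthfd2l did not. The part of these motifs in the changes was not tested. Printed here from 100 bases before to 50 bases after the start are the windows of Shmt1 and Mthfd2, the genes that fell furthest, and of Mthfd2l, the paralog of Mthfd2 with no match. Capitals mark CCAAT or, where it is on the other strand, ATTGG.
Shmt1 chr11:60811216-60811365 minus strand: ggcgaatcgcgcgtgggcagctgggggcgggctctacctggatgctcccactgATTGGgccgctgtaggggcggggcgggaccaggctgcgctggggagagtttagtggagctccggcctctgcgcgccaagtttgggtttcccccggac
Mthfd2 chr6:83317555-83317704 minus strand: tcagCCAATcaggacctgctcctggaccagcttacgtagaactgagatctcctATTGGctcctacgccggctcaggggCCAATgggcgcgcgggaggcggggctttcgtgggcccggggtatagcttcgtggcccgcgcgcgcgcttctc
Mthfd2l chr5:90931096-90931245 plus strand: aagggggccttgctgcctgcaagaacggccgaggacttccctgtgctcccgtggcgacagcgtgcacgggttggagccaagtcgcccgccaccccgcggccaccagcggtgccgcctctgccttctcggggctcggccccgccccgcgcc
The Shmt1 window held 1 match, on the reverse strand at positions -47 to -43 from the start. Mthfd2 held 3, at -96 to -92, -47 to -43 (reverse strand) and -22 to -18.

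The libraries held 40395186 to 75180749 reads assigned to genes and detected 24009 to 26283 genes. Hnrnpl itself fell from 24371, 25579.7 and 24174 normalized counts in WT libraries 1 to 3 to 2178, 1519 and 1297 in hnRNPL-deficient libraries 1 to 3 (log2 fold change -3.93, limma adjusted p = 2.23e-05). Each group held 1 library with Xist RNA (WT library 3 and hnRNPL-deficient library 2) and 2 with Y-linked RNA, so that mice of both sexes were present in both groups. The B cell marker Cd79a lay between 17288 and 24298 in every library, and the T cell receptor genes Cd3e, Cd3d and Cd3g and the myeloid genes Lyz2, Cd14, S100a8 and S100a9 were at or near 0. Of 10 macrophage, monocyte and granulocyte markers 3 could be tested, and 1 of them, Adgre1, rose (log2 fold change 2.24, limma adjusted p = 1.39e-04). The summed level of the list was 530 to 635 in WT and 1450 to 1554 in hnRNPL-deficient libraries. Adgre1 alone made up 236 to 315 and 1217 to 1369 of these sums. Fcgr3 had a lower mean (log2 fold change -0.97, limma adjusted p = 0.141), and Itgam was at -0.07 (limma adjusted p = 0.951). The part of these markers in the results on the enzymes was not tested. Single markers of other lists moved as well. Il7r rose from 2.59 to 4.64 normalized counts in WT to 27.05 to 37.0 in hnRNPL-deficient libraries (limma adjusted p = 0.00388), while Lck, the most abundant gene of the T cell list, was at 892 to 1006 and 615 to 855. The summed T cell list was 904 to 1025 in WT and 666 to 909 in hnRNPL-deficient libraries. Of the dendritic and NK cell list, which summed to 406 to 522 and 420.0 to 456, Xcr1 rose (log2 fold change 1.35, limma adjusted p = 0.0370). Of the plasma cell list Jchain fell (-2.31, limma adjusted p = 0.0509).

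RNA of 9 of the 10 enzymes had a lower mean in hnRNPL-deficient B cells, and Shmt1 and Mthfd2 fell by more than 1.5-fold. A gene was called when its adjusted p in limma was under 0.1 and its fold change at least 1.5. By that rule 2 of 10 enzymes were called lower, where 4.08% of all genes tested were, and 0 were called higher, where 7.28% of all genes were. Without the fold limit, 6 of 10 fell (Phgdh, Psat1, Shmt1, Shmt2, Mthfd2 and Mthfd1l), against 7.97% of all genes. Phgdh and Shmt2 missed that threshold when the libraries were scaled by TMM factors, which left 4 of 10, and 3 to 6 of 10 passed when each library in turn was omitted (3 without WT library 2 or hnRNPL-deficient library 3). For 8 of 10, every hnRNPL-deficient library lay below every WT library, which held for 16.3% of all genes; Mthfd2l and Aldh1l2 were the other two. The median log2 fold change of the enzymes was -0.42, and that of all genes tested was -0.03. These values are differences of log2(normalized count + 1), and bulk RNA cannot tell fewer transcribing cells from less RNA per cell. The plot of values by library shows the 10 genes over their whole range, from Aldh1l2 at the bottom to Shmt2 at the top.

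**Figure D1:**
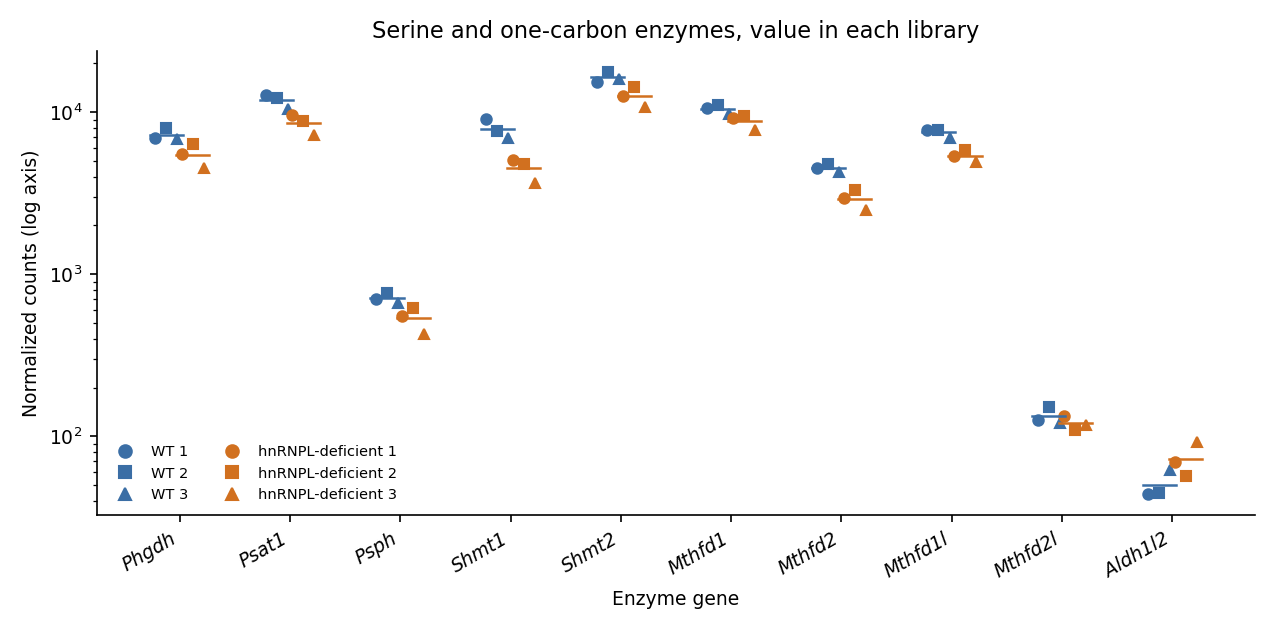
Normalized counts (log axis) of the 10 enzyme genes in each library, with WT in blue, hnRNPL-deficient in orange, a symbol for each replicate number and a line at each group mean. All 3 orange symbols lie below all 3 blue ones for 8 genes, and the groups overlap for Mthfd2l and Aldh1l2.

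Of the serine synthesis genes Phgdh and Psat1 fell, both by less than 1.5-fold, and Psph did not pass the test. Phgdh (chromosome 3, 98313170 to 98339990, minus strand, GRCm38), the first and committing step, stood at 6918, 7953 and 6824 normalized counts in WT libraries 1 to 3 and at 5502, 6378 and 4496 in hnRNPL-deficient libraries 1 to 3. The highest deficient value was below the lowest WT value, and the mean went from 7232 ± 626 to 5459 ± 942 (SD, n = 3), 24.5% lower. The log2 fold change was -0.42 (SE 0.138, 95% interval -0.73 to -0.10, limma adjusted p = 0.0911). With any one library omitted, that adjusted p was 0.0558 without hnRNPL-deficient library 2 and between 0.126 and 0.238 without any of the others. Reads of Phgdh are harder to place than those of the other enzymes, since 28.1% of the 100-base runs in its transcripts also occur in transcripts of other genes, most of them in Gm7901. That gene had 1752, 1348 and 1412 normalized counts in WT and 1199.9, 1039 and 1228 in hnRNPL-deficient libraries (log2 fold change -0.37, limma adjusted p = 0.118).

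Psat1 (chromosome 19, 15904678 to 15947337, minus strand), the aminotransferase, was the most abundant of the 3. Its values were 12807, 12249.9 and 10473 in WT and 9569.9, 8810.2 and 7221 in hnRNPL-deficient libraries, with no overlap. It fell by 27.9%, with a log2 fold change of -0.48 (SE 0.131, 95% interval -0.78 to -0.18, limma adjusted p = 0.0505), short of the 1.5-fold limit. The limma adjusted p was 0.116 or 0.147 on omitting the first or the second WT library and 0.108 on omitting hnRNPL-deficient library 3. Psph (chromosome 5, 129765558 to 129787449, minus strand), the phosphatase that finishes the route, was far scarcer, at 702, 770.4 and 666 in WT and 554, 619.9 and 429 in hnRNPL-deficient libraries. The groups did not overlap, but the log2 fold change of -0.43 (SE 0.164, 95% interval -0.80 to -0.06) did not pass the test (limma adjusted p = 0.133), and without hnRNPL-deficient library 3 it was -0.28. Psph shares 7.41% of its 100-base runs with Cct6a, which lies on the opposite strand.

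Both serine hydroxymethyltransferase genes fell, the cytosolic form past 1.5-fold and the mitochondrial form short of it. Shmt1 (chromosome 11, 60788104 to 60811718, minus strand) had 9110.0, 7664 and 6983 normalized counts in WT and 5105, 4761 and 3675 in hnRNPL-deficient libraries. The lowest WT library was well above the highest deficient one, and the mean fell from 7919 ± 1086 to 4514 ± 747 (SD, n = 3), which is 43.0% lower. Its log2 fold change of -0.82 (SE 0.150, 95% interval -1.16 to -0.47, limma adjusted p = 0.0121) was the largest among the enzymes, and it was called lower under all 20 alternative settings that were run. Shmt2 (chromosome 10, 127517123 to 127522444, minus strand) had 15279, 17751 and 16126 in WT and 12566, 14322 and 10817 in hnRNPL-deficient libraries. Again the groups were separate, but the fall was smaller, 23.3% (log2 fold change -0.39, SE 0.122, 95% interval -0.67 to -0.11, limma adjusted p = 0.0781). Its adjusted p stayed under 0.1 without WT library 1 (limma, 0.0871) or hnRNPL-deficient library 2 (0.0591) and lay between 0.148 and 0.222 without any of the others.

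Among the mitochondrial enzymes that carry the unit on to formate, Mthfd2 and Mthfd1l fell. Mthfd2 (chromosome 6, 83305691 to 83325908, minus strand), the dehydrogenase and cyclohydrolase that dividing cells use, had 4503, 4799 and 4282 in WT and 2958, 3295 and 2507 in hnRNPL-deficient libraries. The gap between the groups was wider than the spread within either, and the mean went from 4528 ± 259.8 to 2920.1 ± 396 (SD, n = 3), 35.5% lower. The log2 fold change was -0.64 (SE 0.120, 95% interval -0.91 to -0.37, limma adjusted p = 0.0131). Without hnRNPL-deficient library 3 it was -0.53, still past the adjusted p (limma, 0.0276) but under 1.5-fold, as it also was after quantile normalization. Mthfd1l (chromosome 10, 3973118 to 4167081, plus strand), the formate-releasing ligase, had 7797, 7818 and 6907 in WT and 5339, 5869 and 4915 in hnRNPL-deficient libraries. It fell by 28.4% with no overlap (log2 fold change -0.48, SE 0.104, 95% interval -0.72 to -0.25, limma adjusted p = 0.0223), and its adjusted p was at most 0.0890 when any single library was left out.

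Mthfd2l (chromosome 5, 90931117 to 91021368, plus strand), which encodes another mitochondrial enzyme with the activities of MTHFD2, was scarce in these cells. It had 125, 152 and 121 normalized counts in WT and 133, 110.1 and 118 in hnRNPL-deficient libraries, and the groups overlapped. The log2 fold change was -0.14 (SE 0.206, limma adjusted p = 0.703), with a 95% interval of -0.61 to 0.33 that still holds a fall as large as that of Shmt2. Aldh1l2 (chromosome 10, 83487450 to 83534140, minus strand), which draws formyl units away from formate, was the scarcest and the only enzyme with a higher mean. Its values were 44.1, 44.96 and 61.9 in WT and 69.4, 56.5 and 91.8 in hnRNPL-deficient libraries, and the groups overlapped. The log2 fold change of 0.51 (SE 0.287, 95% interval -0.15 to 1.16) did not pass the test (limma adjusted p = 0.294). Of its 100-base runs, 12.4% also occur in D10Wsu102e on the opposite strand. That gene was far more abundant, at 7687, 8786 and 9014 normalized counts in WT and 5972, 7456 and 10237 in hnRNPL-deficient libraries. Its part in the Aldh1l2 counts was not tested.

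Mthfd1 (chromosome 12, 76255298 to 76319803, plus strand), the cytosolic protein with 3 activities that receives the formate, differed least among the abundant enzymes. It had 10628, 11013.5 and 9807 in WT and 9255, 9469 and 7741 in hnRNPL-deficient libraries. The groups were separate by a small margin, the mean was 15.8% lower, and the log2 fold change of -0.25 (SE 0.108, 95% interval -0.50 to -0.01) did not pass the test (limma adjusted p = 0.173); without hnRNPL-deficient library 3 it was -0.16. The plot of the change of each enzyme gene orders the 10 by fold change, with Shmt1 and Mthfd2 at one end and Aldh1l2 at the other.

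**Figure D2:**
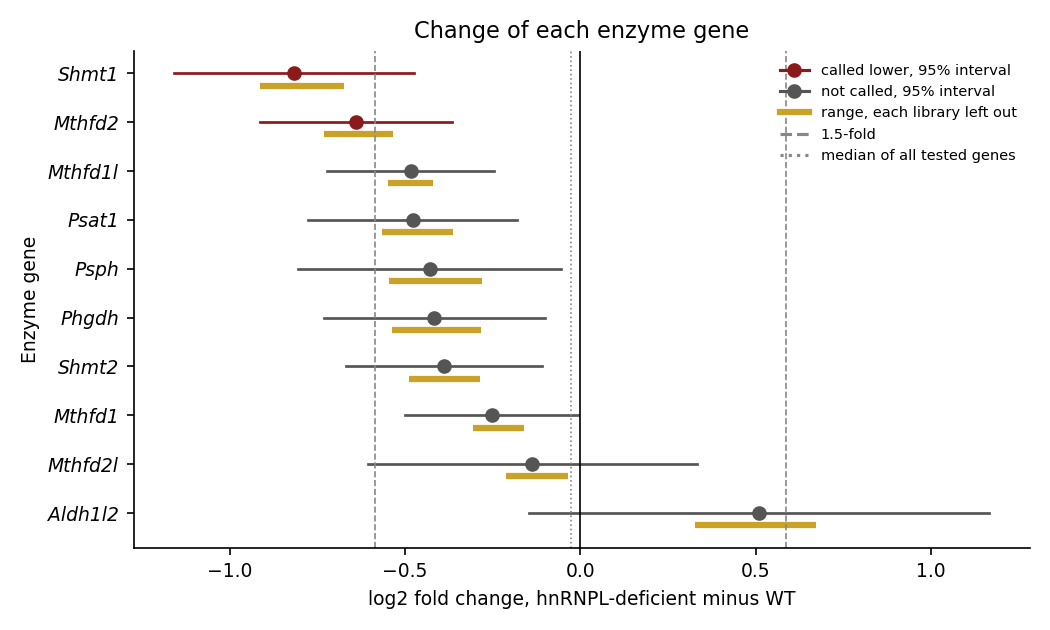
Log2 fold change (hnRNPL-deficient minus WT) of each enzyme gene with its 95% interval; red marks the genes called lower, the yellow bar is the range when each library is left out in turn, dashed lines mark 1.5-fold and the dotted line is the median of all tested genes. Shmt1 and Mthfd2 lie past the dashed line at -0.82 and -0.64, and only the intervals of Mthfd2l and Aldh1l2 reach well across 0.

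A transcribed stretch inside the Mthfd2 locus went the opposite way. Gm43890 (ENSMUSG00000108053.1) is annotated on chromosome 6 from 83314145 to 83316943, minus strand, as a gene of unproven status 2799 bases long. It lies on the same strand as Mthfd2 and wholly within an intron, between the Mthfd2 exons that end at 83313546 and start at 83317429, with 0 bases in any Mthfd2 exon. It was singled out after its values were seen, from the genes that overlap an enzyme gene. Gm43890 had 234, 447 and 419 normalized counts in WT and 656, 842 and 1036 in hnRNPL-deficient libraries, so every deficient library was above every WT library. It rose with a log2 fold change of 1.23 (SE 0.269, limma adjusted p = 0.0232), and it was called higher under all 20 alternative settings run. Relative to the separate Mthfd2 count of the same library, the Gm43890 count was 5.21%, 9.31% and 9.79% in WT and 22.2%, 25.6% and 41.3% in hnRNPL-deficient libraries. Reads were counted by strand, but counts per gene cannot tell a separate RNA from unspliced or incompletely spliced Mthfd2 RNA here. The other genes annotated inside an enzyme gene on its strand, Gm16074 and Gm25515 within introns of Mthfd1l, did not pass the test (log2 fold change -0.14 and -0.89, limma adjusted p = 0.795 and 0.388).

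Divided by exon length, the RNA levels of the enzymes spanned a wide range. In WT cells Shmt2 stood highest, at 5270.3 ± 404 normalized counts per kb of exon (SD, n = 3). Phgdh (2909 ± 252), Psat1 (2784 ± 287), Mthfd1 (2359.9 ± 139) and Shmt1 (2039 ± 279.8) followed, and each overlapped its neighbour in that order over the WT libraries. Mthfd1l (1693 ± 117) and Mthfd2 (1299 ± 74.5) came next, separate from their neighbours. Psph was at 165 ± 12.2, Mthfd2l at 19.98 ± 2.55 and Aldh1l2 at 6.71 ± 1.34. In hnRNPL-deficient cells the order was the same but for Shmt1, which at 1162 ± 192 stood below Mthfd1l at 1212 ± 108, a difference within their spread.

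Ratios of enzymes in one library do not depend on library size. Shmt1 over Shmt2, the cytosolic over the mitochondrial form, was 0.596, 0.432 and 0.433 in WT and 0.406, 0.332 and 0.340 in hnRNPL-deficient libraries, so that all 3 deficient ratios lay below all 3 of WT. The log2 ratio differed by -0.43 (exact two-sided permutation p = 0.1, adjusted over the 5 ratios 0.167), where 0.1 is the smallest p that 3 against 3 allows. Without WT library 1, whose ratio was the highest, the difference was -0.27.

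Mthfd1 over Mthfd1l, the cytosolic over the mitochondrial partner in formate exchange, ran the other way. It was 1.36, 1.41 and 1.42 in WT and 1.73, 1.61 and 1.58 in hnRNPL-deficient libraries, again with no overlap (log2 difference 0.23, exact permutation p = 0.1, adjusted 0.167). In these libraries the cytosolic share was therefore lower for the one pair and higher for the other. Mthfd2 over Mthfd2l was 35.9, 31.5 and 35.4 in WT and 22.2, 29.9 and 21.3 in hnRNPL-deficient libraries (log2 difference -0.50, exact permutation p = 0.1, adjusted 0.167). Within the serine route the proportions differed little: Psph over Phgdh was 0.0969 to 0.101 in WT and 0.0954 to 0.101 in hnRNPL-deficient libraries (log2 difference -0.01, exact permutation p = 0.6, adjusted 0.7). Psat1 over Phgdh was 1.53 to 1.85 in WT and 1.38 to 1.74 in hnRNPL-deficient libraries, also overlapping (log2 difference -0.06, exact permutation p = 0.7, adjusted 0.7).

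**Figure D3:**
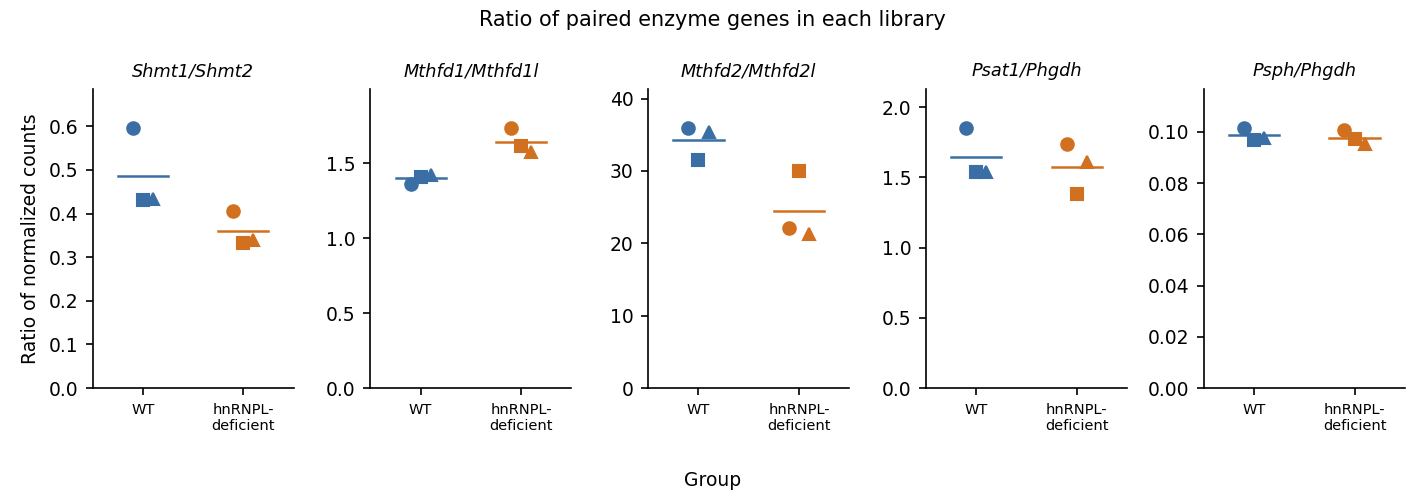
Ratio of normalized counts of paired enzyme genes in each library (circle, square and triangle for replicates 1, 2 and 3; line, group mean; each panel has its own axis from 0). The groups are separate for Shmt1/Shmt2, Mthfd1/Mthfd1l and Mthfd2/Mthfd2l and overlap for Psat1/Phgdh and Psph/Phgdh.

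The hnRNPL-deficient libraries were not equally low. Library 3 was the lowest of all 6 for 8 of the 10 enzymes, and WT library 3 was the lowest of its group for 8. The median deviation of the enzymes from the WT mean, on the log2 scale, was -0.37, -0.23 and -0.65 in hnRNPL-deficient libraries 1 to 3 and -0.01, 0.08 and -0.09 in WT libraries 1 to 3. Without hnRNPL-deficient library 3 the median log2 fold change was -0.28, 1 enzyme was called lower (Shmt1, -0.67, limma adjusted p = 0.0268) and 3 passed the adjusted p at any fold.

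The 12 proliferation markers, among them Mki67, Top2a and the MCM helicase genes, were also lowest in hnRNPL-deficient library 3. All 12 had a lower mean in hnRNPL-deficient cells, 4 passed the adjusted p (7.97% of all genes), 1 was called lower (4.08%; Mcm5, log2 fold change -0.59, limma adjusted p = 0.0306), and their median log2 fold change was -0.51. Their median deviation was 0.32, -0.12 and -0.17 in WT libraries 1 to 3 and -0.24, -0.41 and -0.92 in hnRNPL-deficient libraries 1 to 3. Library 3 was the lowest of 6 for 12 of 12 markers, whereas hnRNPL-deficient libraries 1 and 2 stood in opposite order for the markers and the enzymes. WT library 1 was the highest of 6 for 11 of 12 markers, whereas the highest median of the enzymes was that of WT library 2. The part of proliferation in the enzyme values was not tested.

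**Figure D4:**
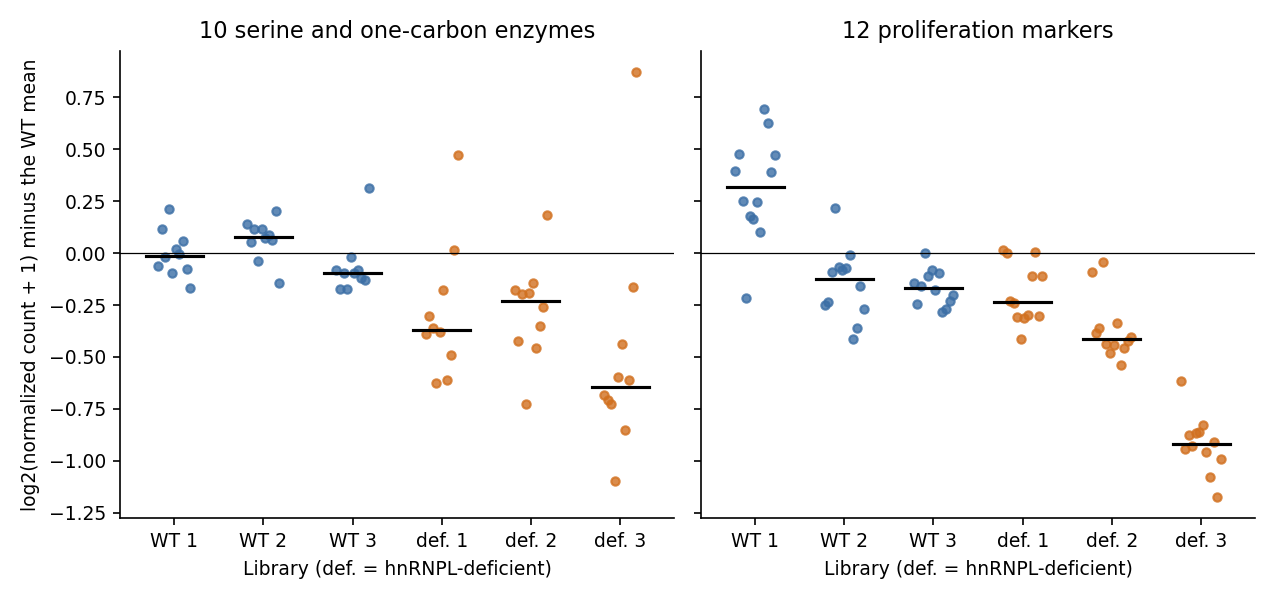
Deviation of each gene from its WT mean, on the log2(normalized count + 1) scale, in every library; points are the 10 enzymes (left) or 12 proliferation markers (right) and bars are medians. hnRNPL-deficient library 3 is lowest in both panels, with medians of -0.65 and -0.92.

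The enzymes were also compared within libraries of the same sex, a split chosen after the data were seen. Among the 2 WT and 2 hnRNPL-deficient libraries with Y-linked RNA the median log2 fold change was -0.58. In that fit 3 enzymes were called lower, where 1.76% of all genes were. They were Shmt1 (-0.95, limma adjusted p = 0.0461), Mthfd2 (-0.77, limma adjusted p = 0.0521) and Mthfd1l (-0.61, limma adjusted p = 0.0849). Between the 1 library of each group with Xist RNA, the log2 difference was -0.55 for Shmt1, -0.38 for Mthfd2 and -0.23 for Mthfd1l. It was -0.25 for Psat1, -0.17 for Shmt2, -0.10 for Phgdh and Psph and -0.05 for Mthfd1. The sign was thus the same in both comparisons for 9 of the 10 enzymes. Aldh1l2 was at 0.83 in the first comparison and -0.13 in the other. Sex cannot be told apart from library here, as the only deficient library with Xist RNA was library 2, with a median deviation of -0.23. The size of the difference between the sexes was not tested, as a single pair has no replicate.

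Around the enzymes, 6 lists of related genes held 79 genes, of which 65 could be tested. Of these 48 had a lower mean, as did 9304 of all 17640 genes tested, and the median log2 fold change was -0.21. Called lower were 2 and higher 4, against 4.08% and 7.28% of all genes, so the called shares were no larger than those over all genes. Slc1a5, which encodes the neutral amino acid transporter ASCT2, fell from 6512 ± 529.5 to 3635 ± 317 normalized counts (SD, n = 3; log2 fold change -0.84, limma adjusted p = 0.00288) and was called lower under all 20 alternative settings run. Slc38a1, a sodium-coupled neutral amino acid carrier, fell from 24094 ± 1967 to 16808 ± 894 (log2 fold change -0.52, limma adjusted p = 0.0146), under 1.5-fold. Slc38a2 was 11939 ± 661 against 13120.4 ± 636 in WT, with a log2 fold change of -0.14 (limma adjusted p = 0.378). In the whole list of serine and glycine transport, 8 of 9 genes tested had a lower mean and 1 was called.

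In the folate cycle and folate transport list 10 of 14 genes tested had a lower mean (9304 of all 17640 genes) and 0 were called in either direction. The median was -0.17, and 1 gene passed the adjusted p downward (7.97% of all genes) and 1 upward (1766 of 17640). Mtr, methionine synthase, was at -0.27 (limma adjusted p = 0.119). Of the glycine cleavage system, Gldc and Amt were below the level for testing on average. Its other genes were Gcsh, which fell (log2 fold change -0.49, limma adjusted p = 0.0743, but 0.128 to 0.169 without any library other than hnRNPL-deficient 1), and Dld, which serves other complexes as well, at -0.10 (limma adjusted p = 0.646).

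The 8 genes of purine synthesis, a route that consumes formyl folate, all had a lower mean, with a median of -0.32. For 5 of them the groups did not overlap (16.3% of all genes lay lower in this way), 2 passed the adjusted p (7.97%) and 0 were called (4.08%). Paics went from 20030.4 ± 4790.3 to 14306 ± 1549 (log2 fold change -0.47, limma adjusted p = 0.110), but the log2 fold change was -0.28 without WT library 1, which at 25558 stood above the other WT libraries at 17087 and 17446. Atic, which uses the formyl unit, went from 18272 ± 2268 to 14452 ± 1504 (-0.34, limma adjusted p = 0.122). Among genes that use serine or glycine 0 of 10 were called lower (4.08% of all genes) and 1 higher (7.28%), with a median of -0.15. That gene was Srr, serine racemase, which rose from 247 ± 16.6 to 372 ± 19.9 (log2 fold change 0.59, limma adjusted p = 0.0402); it was not called under 6 of 20 alternative settings, among them the omission of the first (0.54) or the third (0.60) WT library or of hnRNPL-deficient library 3 (0.55). Ptdss1, for phosphatidylserine synthesis, was at -0.05 (limma adjusted p = 0.778) and Alas1, for haem synthesis from glycine, at -0.27 (limma adjusted p = 0.121).

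ATF4 is a transcription factor known to induce the serine enzymes when amino acids run short, so its list was read beside them. Atf4 RNA was 12379, 15268 and 14707 in WT and 11461, 14137 and 12668 in hnRNPL-deficient libraries, overlapping (log2 fold change -0.15, limma adjusted p = 0.469). Of 22 genes of the list tested, 13 had a lower mean, 1 was called lower (4.08% of all genes) and 3 higher (7.28%), with a median of -0.16. Past the adjusted p at any fold were 6 downward (7.97% of all genes) and 3 upward (1766 of all 17640 genes). Sesn2, which senses leucine, rose from 1039.5 ± 144 to 2863 ± 187 (log2 fold change 1.47, limma adjusted p = 5.28e-04), and Ddit4, an inhibitor of mTORC1 signalling, from 523 ± 89.4 to 1528 ± 182 (1.55, limma adjusted p = 0.00105). Both were called under all 20 alternative settings. Asns, asparagine synthetase, rose from 848 ± 269.7 to 1346 ± 37.3 (0.71, limma adjusted p = 0.0615) but was not called under 8 of the 20, among them when any single library but WT library 2 was left out (limma adjusted p = 0.109 to 0.164). Atf3 fell from 706 ± 59.4 to 423 ± 83.9 (-0.75, limma adjusted p = 0.0309) and was not called under 5 of the 20, among them without WT library 2 (-0.71, limma adjusted p = 0.102) or hnRNPL-deficient library 2 (-0.58). The abundant Slc7a1, an arginine and lysine carrier, fell by 0.41 on the log2 scale (limma adjusted p = 0.0559, but 0.116 to 0.146 without WT library 2 or hnRNPL-deficient library 1 or 2), and Aars, for alanyl-tRNA synthetase, was at -0.22 (limma adjusted p = 0.2302). Asns thus had a higher mean in hnRNPL-deficient cells, while the means of Phgdh, Psat1 and Psph were lower. Genes of the list went both ways, and the part of ATF4 in any of these changes was not tested.

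Myc, the factor behind much of the growth programme of activated B cells, had 12339, 15369 and 14595 normalized counts in WT and 9698, 12773 and 8956 in hnRNPL-deficient libraries. The groups overlapped, and Myc fell by 0.44 on the log2 scale (limma adjusted p = 0.0976), under the 1.5-fold limit; the limma adjusted p was between 0.203 and 0.2402 without WT library 2 or 3 or hnRNPL-deficient library 1 or 3. The paper, by its own test, reports no significant change of Myc expression in these cells. By gene set enrichment it does report a decrease of the MYC target signature in them. The difference found here was close to the median of the enzymes, -0.42, but the part of MYC in the enzyme values was not tested.

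**Figure D5:**
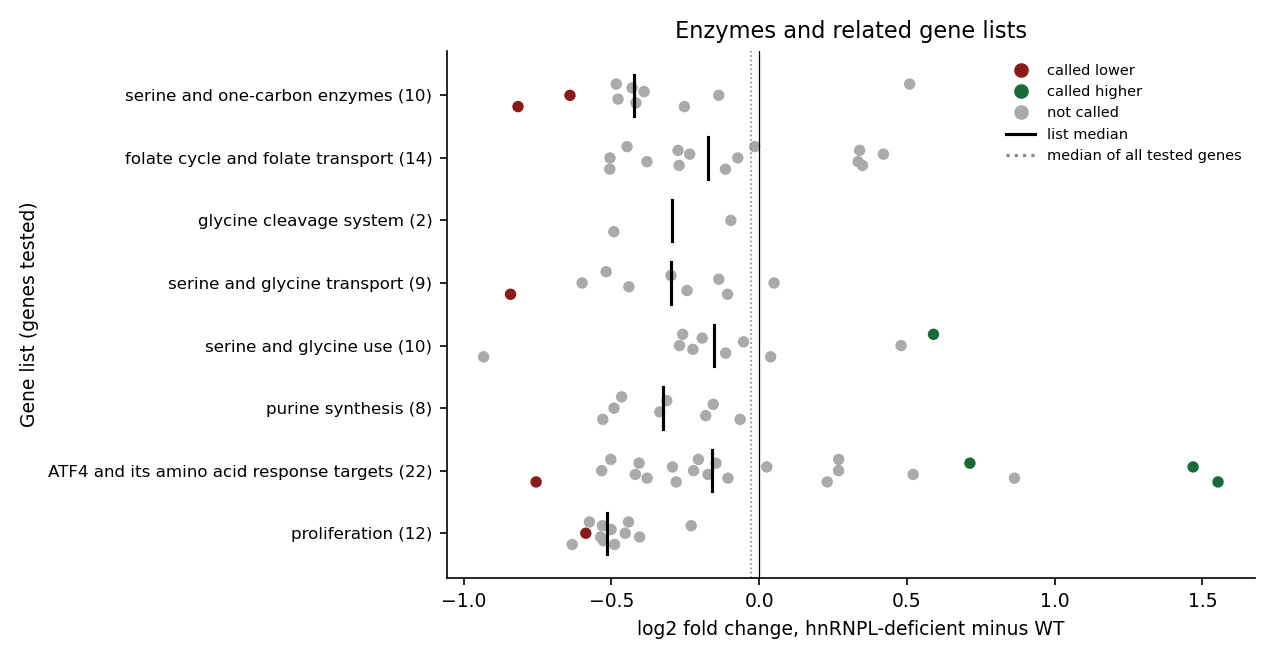
Log2 fold change (hnRNPL-deficient minus WT) of each tested gene in the enzyme list, 6 related lists and the proliferation markers, with the number of genes in brackets; colours mark calls, bars are list medians and the dotted line is the median of all tested genes. The enzyme and proliferation lists have the lowest medians, -0.42 and -0.51, and the genes furthest to the right are Sesn2 and Ddit4 of the ATF4 list.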

How the data were processed

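RNA-seq libraries, 3 WT and 3 hnRNPL-deficient, were made from sorted GFP+ B cells of the spleen and grouped by the genotype in the labels. The study's text gives 3 mice in each group; the labels do not say which mouse gave which library. The authors trimmed reads with fastp (0.23.1), aligned them with STAR (2.7.9a) to mm10, counted them by strand per GENCODE gene with featureCounts and divided counts by DESeq2 (1.38.2) size factors. The deposited values are therefore a signal, counts per gene on a common scale. The deposited table also holds the authors' mean, log2 fold change, its error, test score, p-value and adjusted p-value columns, which were not used.

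The test was limma (3.58.1, R 4.3.3) on log2(normalized count + 1), its prior variance following the mean. It took in the 17640 genes averaging 10 or more, and p-values were Benjamini-Hochberg adjusted over all of them. A gene was called at an adjusted p under 0.1 and at least 1.5-fold. The whole reads behind the values came back for every library (100% of values within 0.05 of a whole read); in hnRNPL-deficient library 2 the step was too close to 1 to be sure of, so edgeR (4.0.16) and DESeq2 (1.42.0) were run on the other 5 libraries as alternatives. Depth was 40395186 to 75180749 reads, so that for all but the scarcest enzymes the spread between libraries, not counting error, sets the precision. Ratios of enzymes were compared with exact permutation tests over the 6 libraries.

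The enzymes, the related lists and the tests were chosen with earlier results of these data known. Named beside the 10 enzymes were every related gene called, the 2 most abundant uncalled genes of each list (1 is not reported here), Atf4, Myc and Hnrnpl. The Mthfd2 neighbour Gm43890 was added after its values were seen, as were Mcm5, individual markers of other cell types and the genes that share sequence with an enzyme or overlap it. Gene positions are from GENCODE on GRCm38, the build of mm10, and promoter sequences from RefSeq. Protein sequences were not used here.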

Additional observations from a re-analysis of the deposited data

How the results depend on the processing

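Of 20 alternative settings, Shmt1 was called lower in all and Mthfd2 in all but quantile normalization and the fit without hnRNPL-deficient library 3. Enzymes called lower numbered 2; the count was 1 with quantile normalization, 0 at an adjusted p under 0.05 and 2-fold, 6 at an adjusted p under 0.1 and any fold, and 1 to 2 with each library left out in turn. Enzymes past the adjusted p at any fold numbered 3 without a mean-variance trend. Over the same omissions the median log2 fold change of the enzymes ran from -0.52 to -0.28. Related genes called lower (2) came to 0 and 12 at those thresholds and 1 to 6 with a library left out; those called higher (4) came to 2 at the stricter threshold, 2 in the libraries with Y-linked RNA only, a setting chosen after seeing the data, and 2 to 5 with a library left out. All genes called lower (719) came to 216, 1406 and 310 at the stricter threshold, at any fold and in the Y-linked libraries. All genes called higher (1284) came to 610 at the stricter threshold, 450 in the Y-linked libraries, where fewer samples entered, and 850 to 1124 with a library left out. edgeR and DESeq2, both run without hnRNPL-deficient library 2, each called 2 enzymes lower.

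With the replicate number as a block, 2 enzymes were still called lower, 8 in place of 6 passed the adjusted p and 4 related genes were called lower in place of 2. Calls rose over all genes as well under this setting, to 5.77% lower in place of 4.08% and 9.95% higher in place of 7.28%. The labels do not say whether the numbers pair the libraries, and the values do not settle it. Same-numbered libraries deviated together with r = 0.43, 0.32 and 0.07. WT library 3 correlated best with hnRNPL-deficient library 2 (r = 0.31), and every other library with its own number.

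Small differences changed sign: Dld 0.00516 without WT library 1 (range with a library left out -0.18 to 0.00516), Ptdss1 0.00234 with equal totals and 0.0315 with quantile normalization, Atf4 0.00576 with quantile normalization, Psat1/Phgdh 0.0288 on omitting WT library 1 and 0.0311 on omitting hnRNPL-deficient library 2, and Psph/Phgdh 0.00786 on omitting WT library 1 and 0.00409 on omitting hnRNPL-deficient library 3. The cause was not tested. The log2 ratio ran from -0.14 to 0.0311 for Psat1/Phgdh and from -0.0337 to 0.00786 for Psph/Phgdh over the omissions.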
